A study of Mus musculus with 48 samples.

Results

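The replication-dependent histone genes encode the bulk of the H1 linker histone and of the H2A, H2B, H3 and H4 core histones that package newly made DNA. They were taken as the protein-coding genes of the mouse annotation whose symbols start with Hist1h, Hist2h, Hist3h or Hist4h, which gave 67 of the 55335 genes in the expression tables. Of these, 6 encode H1, 18 H2A, 18 H2B, 12 H3 and 13 H4. Chromosome 13 holds 54 of them, chromosome 3 holds 10, chromosome 11 holds 2 and chromosome 6 holds 1. The rule reads gene names and not measured values.

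Replication-dependent histone mRNAs are made mainly in S phase, have no introns, and end in a conserved stem-loop in place of a poly(A) tail. The stem-loop binding protein SLBP holds this end, the U7 snRNP directs the cut that forms it, and SLBP with the helicase UPF1 starts rapid decay of the mRNA while it is being translated, when DNA synthesis stops. Libraries of total RNA keep such mRNAs, which selection for poly(A) would largely lose.

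The study asked how NRDE2 and CCDC174, proteins that bind U1 snRNA and 5′ splice sites, and their partner MTREX, an RNA helicase of the nuclear exosome pathway, act on transcripts of mouse embryonic stem cells (mESCs). All lines were engineered from male mESCs of hybrid 129-C57BL/6 background that carry a tamoxifen-activated Cre recombinase, and were grown in serum, LIF and 2i. RNA-seq was made from 28 libraries in 14 groups of 2, and Ribo-seq, which sequences the RNA fragments covered by ribosomes, from 4 libraries in 2 groups. To delete the floxed gene, 4-hydroxytamoxifen was given at 100 nM, for 4 d to Nrde2-KO and for 3 d to Mtrex-KO cells, and the matching WT groups were the same conditional lines without it. Nrde2d200 cells make NRDE2 without its N-terminal 200 amino acids, and Nrde2-D174R cells carry a point mutation that disturbs binding to MTREX. Both were compared with the same Nrde2-WT libraries as Nrde2-KO. Ccdc174-dTAG cells carry a Ccdc174-FKBP12F36V fusion and received dTAG-13 at 500 nM for 24 h, which leads to degradation of the fusion protein, and Ccdc174-WT is the same fusion line without dTAG-13, so the tag is present in both. Ccdc174-WT, Ccdc174-dTAG and a second set of Nrde2-WT and Nrde2-KO cells were each sequenced without and with cycloheximide (CHX), an inhibitor of translation elongation, at 0.1 mg/ml for 4 h. The labels give replicate numbers but do not say that the libraries came from separate cultures, so p-values measure the spread between these libraries only.

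The stem-loop is the feature that sets these mRNAs apart, so its sequence is given first for the members that the results below turn on. Sequences are from the GRCm38 genome (the assembly named mm10), read 5′ to 3′ on the gene's strand as DNA, with the 16 bases of the match in capitals and 5 bases of context on each side. A match is GG, any 2 bases, CTTTT, any base, AG, any 2 bases and CC, in that order. The coordinates that follow are those of the capitals.

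Hist1h1a: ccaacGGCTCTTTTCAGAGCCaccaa
Hist1h1b: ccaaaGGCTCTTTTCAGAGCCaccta
Hist1h1t: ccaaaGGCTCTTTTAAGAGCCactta
Hist1h2aa: aaaaaGGCTCTTTTCAGAGCCacctt
Hist1h2ba: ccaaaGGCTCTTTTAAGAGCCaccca
Hist3h2a: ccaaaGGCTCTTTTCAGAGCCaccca
Hist1h4b: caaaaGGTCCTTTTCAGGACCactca
Hist1h4d: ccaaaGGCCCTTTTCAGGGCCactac
Hist1h4i: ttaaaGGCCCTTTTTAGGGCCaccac
Hist2h2ac: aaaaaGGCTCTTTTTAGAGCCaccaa

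These matches lie at chr13:23764392-23764407 for Hist1h1a and chr13:21779837-21779852 (minus strand) for Hist1h1b, the H1 genes with the highest level per kilobase of exon. They lie at chr13:23696525-23696540 for Hist1h1t, chr13:23934891-23934906 for Hist1h2aa and chr13:23933730-23933745 (minus strand) for Hist1h2ba, which encode histone variants known from the testis. The last of these are neighbours transcribed away from each other. The others are at chr11:58955172-58955187 for Hist3h2a, chr13:23757366-23757381 for Hist1h4b, chr13:23581950-23581965 for Hist1h4d, chr13:22040966-22040981 (minus strand) for Hist1h4i and chr3:96220418-96220433 (minus strand) for Hist2h2ac. Each lies downstream of the stop codon, in or next to the annotated 3′ UTR of the gene's only exon, and those of Hist1h1a, Hist1h1b, Hist1h2aa and Hist1h2ba reach past its annotated end. Hist1h4b, Hist1h4d, Hist1h4i and Hist2h2ac are shown because they carry the less common forms.

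The match was searched in the 200 genomic bases after the stop codon, on the strand of the gene only. It was present in 63 of the 67 histone genes (94.0%) and in 5 of 21685 other protein-coding genes (0.0231%), among them the histone genes H2afx and H2bfm. In all, 6 forms of the 16 bases occurred, in which the pairs of the stem changed together on both arms. The form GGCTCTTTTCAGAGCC was found in 41 genes of the H1, H2A, H2B and H3 classes, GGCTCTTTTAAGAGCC in 9 genes, and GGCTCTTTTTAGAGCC in Hist2h2ac alone. The forms with other stem pairs were all in H4 genes, with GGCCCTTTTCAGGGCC in 8, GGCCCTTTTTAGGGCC in Hist1h4i and Hist2h4, and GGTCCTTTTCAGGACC in Hist1h4b and Hist1h4j. The stem-loop began between 21 and 58 bases after the stop codon, with a median of 30.

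The remaining 4 genes held no exact match. Their nearest 16 bases are printed with the letters shared with the commonest form in capitals.

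Hist1h2an: GGCTCTTTTCAGAGCt
Hist1h3g: GGCTCTTcTtAGAGCC
Hist1h4a: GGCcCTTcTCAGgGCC
Hist2h2be: tGaTCTTTTaAagtCt

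They lie at chr13:21786778-21786793 (minus strand), chr13:23535889-23535904, chr13:23760800-23760815 (minus strand) and chr3:96221581-96221596, with 1, 2, 3 and 7 bases different from the commonest form. The match lay inside the annotated exons in 44 of the 63 genes and not wholly inside them in 19. Among these 19, exon bases go on beyond the match in Hist1h2bc (733), Hist1h2bq (1608) and Hist1h2br (1803). In these genes it falls at or in a gap between annotated exons. In 37 of the 63 the annotated transcript ends before or within 100 bases after the stem-loop, and in 26 it goes on for 100 or more bases, as in Hist3h2a (1643 bases beyond), Hist2h3c2 (377), Hist1h4i (330) and Hist1h1t (185).

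Copies of a histone gene resemble each other, and only uniquely mapping reads were counted, which were 50 bases long in RNA-seq. Ribo-seq fragments were selected at a shorter size and the reads trimmed, so the 50-base shares are upper limits there. The share of 50-base positions that occur once in the genome ran from 0 to 100% among the 67 genes, with a median of 52.3%. It was 0 for 5 genes and below 50% for 30, so the levels of these members are lower bounds and reads may be assigned unevenly among copies. The genes Hist1h2bq, Hist1h2ao, Hist1h4m, Hist1h2ap, Hist1h2br, Hist2h2aa2, Hist2h2aa1 and Hist2h3c1 fell below the filter of a mean of 0.5 CPM, the reads per gene scaled to a common library total, in every fit. That left 58 members in the tests without CHX, 59 in the tests of the response to CHX and 56 in Ribo-seq. Hist1h4n entered the CHX tests only through its level with CHX, where it reached at most 2.89 normalized CPM.

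The recovered reads in genes ran from 28683644 to 36272309 per RNA-seq library and from 3475051 to 5035940 per Ribo-seq library. Nrde2 was at 40.2 and 38.8 normalized CPM in Nrde2-WT and at 18.3 and 19.5 in Nrde2-KO, and at 51.4 and 50.2 against 19.1 and 18.8 in the second experiment. Mtrex was at 115 and 107 in Mtrex-WT and at 43.6 and 39.8 in Mtrex-KO. In the other WT groups without CHX it was at 188 to 245, so the untreated Mtrex line held less Mtrex mRNA than the other WT lines. The mRNA of Ccdc174 was at 27.4 and 27.5 in the untreated fusion line and at 34.1 and 36.8 after dTAG-13, which does not check a degraded protein. All 10 pluripotency markers were above 0 in every group, with a summed level of 3322 to 6364 normalized CPM per library (libraries with and without CHX scaled in separate fits), against 1.79 to 6.10 for 7 fibroblast markers. In these bulk libraries, fewer cells in S phase and less histone mRNA per cell cannot be told apart.

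In 18 libraries without CHX other than Mtrex-KO, the histone genes together took between 0.447 and 0.886% of the reads in genes, with a median of 0.582%. Both Mtrex-KO libraries were below all of these at 0.275 and 0.272%. The 8 libraries with CHX were above all of them at 2.58 to 3.60%, with a median of 3.26%. In Ribo-seq the share was 0.640 and 0.647% in WT and 0.590 and 0.570% in Nrde2-KO. The plot of the share of reads by group shows these separate levels.

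**Figure D1:**
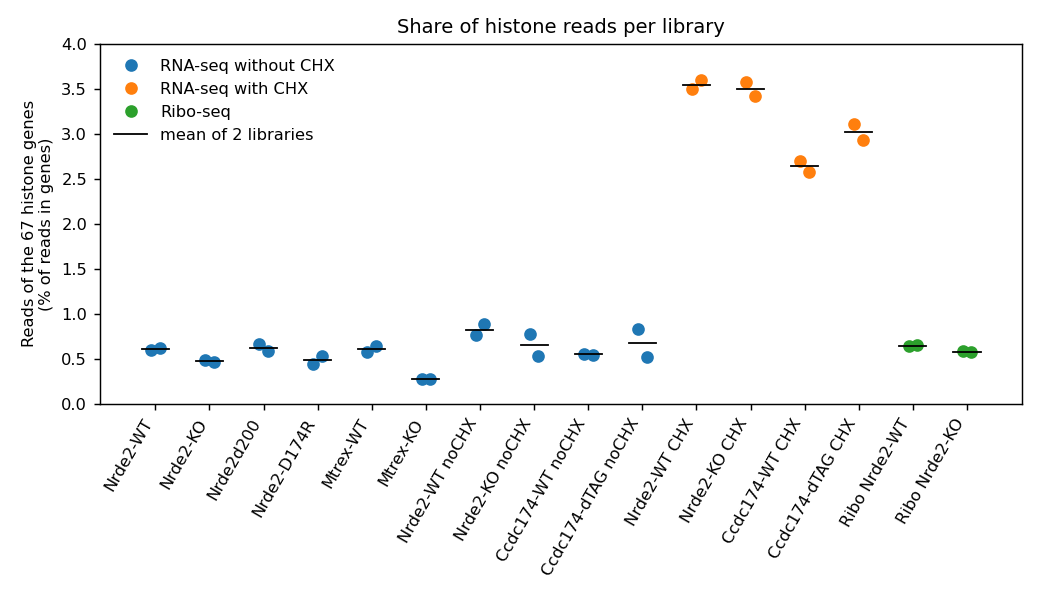
Share of the reads in genes taken by the 67 replication-dependent histone genes, in percent (vertical axis), by group (horizontal axis); each point is 1 library and each line the mean of 2, with blue for RNA-seq without CHX, orange for RNA-seq with CHX and green for Ribo-seq. The CHX libraries sit at 2.58 to 3.60%, and the Mtrex-KO libraries at 0.275 and 0.272% lie below all other libraries.

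H1 genes took the largest share of the histone reads without CHX, with a median of 46.6% over the 18 libraries, followed by H2B at 16.9%, H4 at 16.4%, H3 at 15.3% and H2A at 5.27%. With CHX, H1 was at 33.8%, H4 at 22.6%, H2B at 19.7%, H3 at 15.1% and H2A at 8.61%. In Ribo-seq the classes were closer, at 27.7% for H1, 21.4% for H2B, 21.03% for H3, 20.4% for H4 and 10.04% for H2A. The classes differ in gene length and in uniquely mapping sequence, so these shares describe reads and not molecules.

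Per kilobase of exon, Hist1h1a, a linker histone gene, had the highest level of all members, at 1081 normalized CPM per kb over the 20 libraries without CHX (801 normalized CPM, from 290 to 1128). Hist2h2bb followed with 782 per kb and Hist1h1b with 522, and all of the 50-base positions of these 3 genes are unique. Hist2h2bb overlaps the annotated gene Gm42743 on the same strand, so the reads of both cannot be fully separated. The other leading members, with 2 taken from each class, were Hist1h2bb at 297 per kb, Hist1h3b at 200, Hist1h4h at 187, Hist1h4k at 184, Hist1h2ak at 157, Hist1h3g at 149 and Hist1h2ab at 99.3. Between 28.5 and 59.9% of their positions are unique. The order of all members is uncertain, because with the unique positions as the length only 5 of the 10 leading genes stayed among the leaders. Hist1h3h then stood first at 2038 per unique kb (6.08% of positions unique), above Hist1h1a at 1158. Hist1h1b then stood at rank 8 with 559.

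With CHX, nearly all measured histone genes were higher in every line. A member is said to have risen or fallen where limma gave an adjusted p (Benjamini-Hochberg, over all genes tested) below 0.01, and is called higher or lower where it also changed more than 1 on the log2 scale. In Nrde2-WT 55 of 59 members were called higher with CHX and 0 lower, where 11.1% of all 15133 genes tested were called higher and 2.97% lower. The number called higher was 57 in Nrde2-KO, where 10.4% of all genes were called higher and 3.51% lower. It was 56 in Ccdc174-WT (12.6 and 2.70% of all genes) and 57 in Ccdc174-dTAG (11.6 and 2.86%), and 54 members were called higher in all 4 groups. These counts, and those at the adjusted p alone, include Hist1h4n. It entered the tests only through its level with CHX, so it lends them no support. At the adjusted p alone 55, 57, 57 and 57 members rose in this order, where 24.8, 24.8, 25.0 and 25.5% of all genes rose, and 0, 0, 1 and 1 fell, where 22.9, 24.5, 24.6 and 25.0% of all genes fell. The median member stood 4.26-fold higher in Nrde2-WT, 5.96-fold in Nrde2-KO, 5.17-fold in Ccdc174-WT and 4.62-fold in Ccdc174-dTAG, while the median of all genes lay within 0.02 of 0 on the log2 scale. On the CPM as deposited the median of all genes moved by 0.20 to 0.24 (log2), the members called higher numbered 57 in each group, and no member fell. Hist1h1b in Nrde2-KO and Hist2h2ab in Ccdc174-WT, neither past the test, then changed sign.

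**Figure D2:**
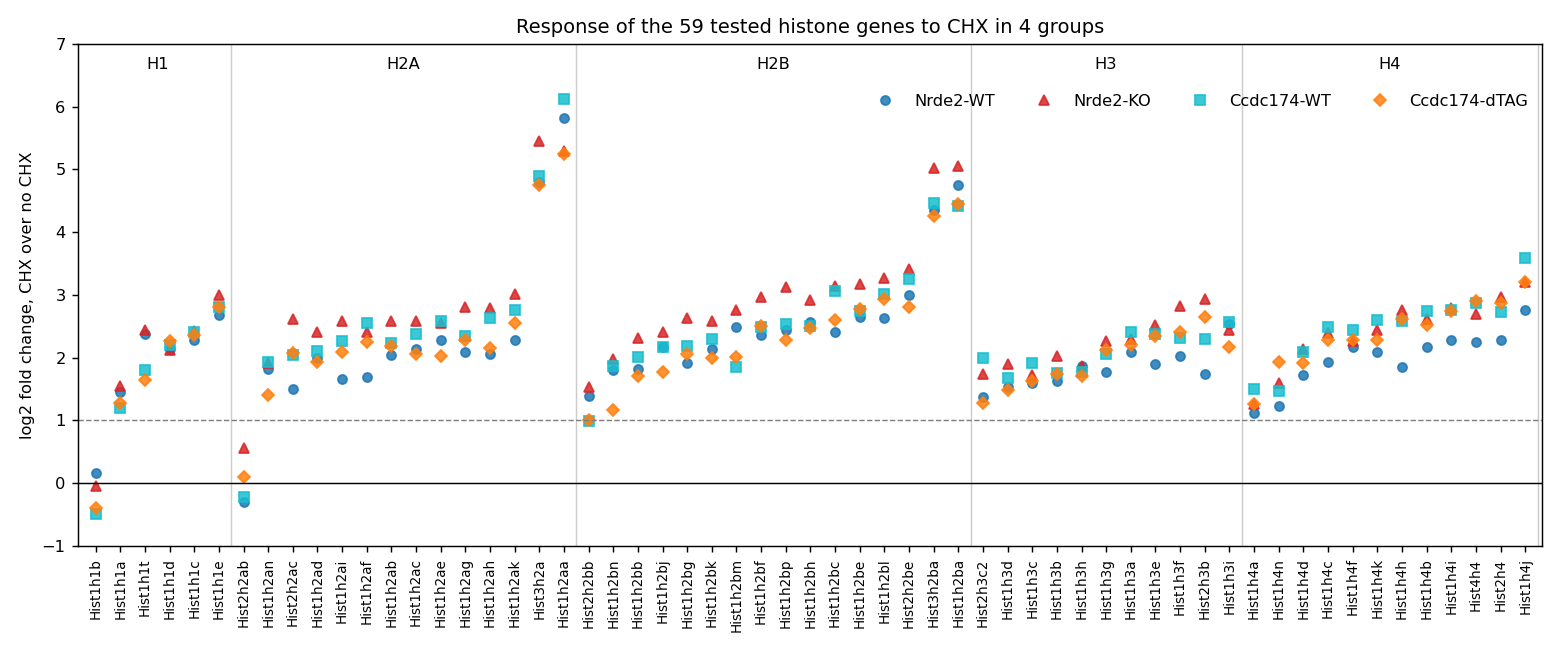
Log2 fold change with CHX over no CHX (vertical axis) for the 59 members tested, ordered within each histone class (horizontal axis); the symbols stand for the 4 groups and the dashed line marks 1. Nearly all members lie above the line in all groups, with Hist1h2aa highest in 3 of the 4 groups and Hist1h1b and Hist2h2ab near 0.

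The largest increases were in the testis variants Hist1h2aa and Hist1h2ba and in the chromosome 11 cluster. Hist1h2aa, an H2A variant gene, was at 8.94 and 8.05 normalized CPM without CHX and at 494 and 492 with CHX in Nrde2-WT. In Ccdc174-WT it was at 3.14 and 4.32 without and at 257 and 293 with CHX. The libraries with and without CHX stood far apart in all 4 groups, and the fold was 56.5 in Nrde2-WT (log2 5.82, SE 0.15, adjusted p = 1.52e-12) and 69.9 in Ccdc174-WT. Its neighbour Hist1h2ba, an H2B variant gene, was at 13.9 and 14.7 without CHX and 407 and 379 with CHX in Nrde2-WT, a log2 fold change of 4.76, and of 5.06, 4.41 and 4.45 in Nrde2-KO, Ccdc174-WT and Ccdc174-dTAG. The testis linker histone gene Hist1h1t was called with 2.38, 2.45, 1.80 and 1.64 in the 4 groups in the same order, which was below the member median in all but Nrde2-WT.

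Hist3h2a, an H2A gene of the chromosome 11 cluster, was at 1.49 and 1.25 without and 48.9 and 40.6 with CHX in Nrde2-WT (log2 fold change 4.79). Its annotated transcript overlaps Trim17 on the same strand, so its reads and those of Trim17 cannot be fully separated. Hist3h2ba, the H2B gene of this cluster, was at 7.12 and 7.77 without and at 150 and 164 with CHX (4.35). Both had log2 fold changes above 4 in each of the other groups too.

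All 5 classes were higher with CHX. In Nrde2-WT the median log2 fold change was 2.43 for H2B (16 of 16 members called), 2.05 for H2A (12 of 14), 1.78 for H3 (11 of 11), 2.13 for H4 (11 of 12) and 2.21 for H1 (5 of 6). Members whose transcript ends close to the stem-loop rose in 29 of 32 cases with a median of 2.02, members whose annotated transcript goes on rose in 23 of 23 with a median of 2.28, and of 4 without an exact stem-loop match 3 rose. Hist1h4n, which entered only through its level with CHX, is among the 11 H4 genes and the 29 cases and lends them no support. Among the H1 genes the increases differed in size. Hist1h1a was at 1221 and 1213 without and at 3293 and 3358 with CHX in Nrde2-WT, 1.45 higher on the log2 scale (SE 0.09, adjusted p = 5.82e-09). Hist1h1e, another linker histone gene, was at 279 and 269 without and at 1780 and 1743 with CHX (2.68), and Hist1h1c and Hist1h1d had log2 fold changes of 2.28 and 2.14.

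Hist1h1b did not pass as higher in any group on the main scale. The contrast with Hist1h1a was chosen after its values were seen and is given as a description. In Nrde2-WT it was at 491 and 513 normalized CPM without and at 550 and 574 with CHX (log2 fold change 0.16, SE 0.09, adjusted p = 0.119), so that both libraries with CHX were slightly higher, and on the CPM as deposited it rose there (0.38, adjusted p = 0.00113). In Nrde2-KO it was at 425 and 492 without and at 469 and 419 with CHX (-0.04, adjusted p = 0.680). In the Ccdc174 pair it fell with CHX from 454 and 490 to 339 and 329 in WT (-0.50, adjusted p = 0.000149) and from 527 and 523 to 432 and 369 after depletion (-0.39, adjusted p = 0.00106), but neither fall passed on the CPM as deposited. Its stem-loop has the same 16 bases as that of Hist1h1a, all of its 50-base positions are unique, and its log2 response was lower than that of Hist1h1a by 1.29 to 1.70 in the 4 groups.

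**Figure D3:**
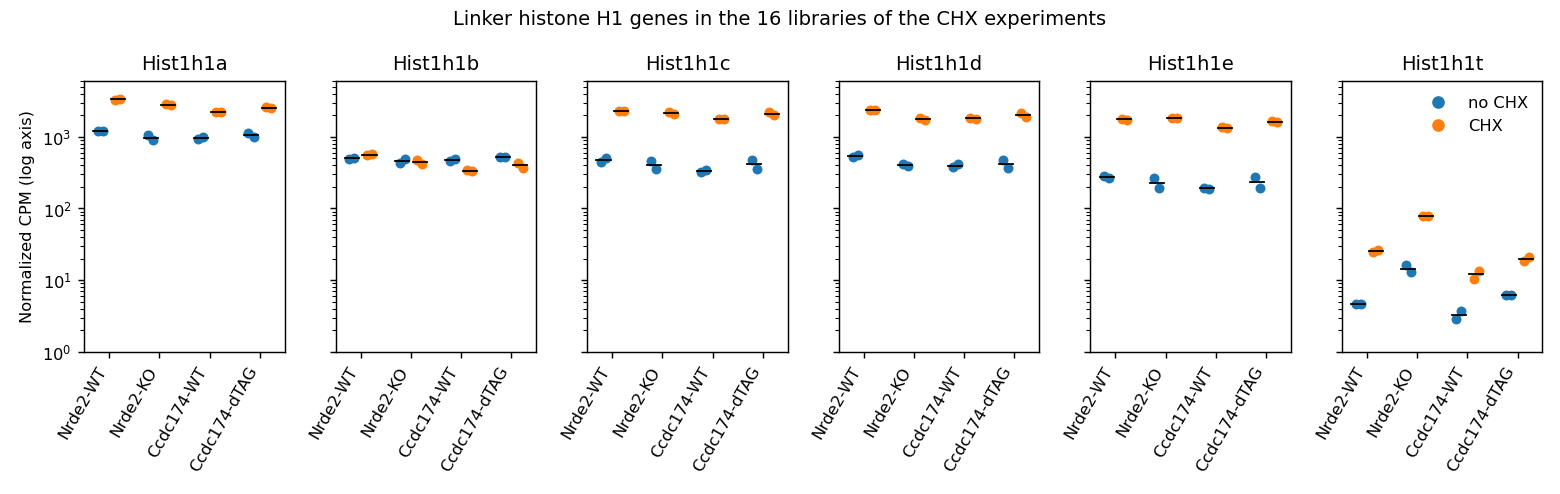
Normalized CPM (vertical axis, log scale) of the 6 H1 genes in 16 libraries of 4 groups, with blue points for libraries without CHX, orange points for libraries with CHX and lines for the mean of 2. Hist1h1b differs little with CHX (log2 fold changes 0.16, -0.04, -0.50 and -0.39), while the other 5 genes are higher with CHX in each group.

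The other members not called in every group were few. Hist2h2ab, an H2A gene, was at 7.45 and 8.83 without and at 5.89 and 7.21 with CHX in Nrde2-WT (-0.31, adjusted p = 0.272), so that its libraries with CHX lay below those without. They lay above them in Nrde2-KO and overlapped with them in both Ccdc174 lines. Hist1h4a (1.12, adjusted p = 0.0145) and Hist1h2af (1.68, SE 0.55, adjusted p = 0.0153) missed the threshold in Nrde2-WT, where their libraries without CHX differed among themselves, at 89.1 and 143 for Hist1h4a and at 15.0 and 31.0 for Hist1h2af. Hist2h2bb rose in Ccdc174-WT with a log2 fold change of 0.99, just under the limit for a call.

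Genes of the cell cycle and of histone mRNA metabolism are given for the same comparison. Of 28 S phase genes 2 rose and 9 fell with CHX in Nrde2-WT (median log2 fold change -0.17), and of 20 G2/M genes 0 rose and 16 fell (-0.47). Of 25 factors of histone mRNA synthesis and decay 4 rose and 8 fell, none past 1 on the log2 scale. Of 11 replication-independent histone genes tested 2 rose, H1f0, a linker histone of resting cells (2.49), and H3f3b, which encodes H3.3 (0.88), and 3 fell. Of 10 pluripotency markers 6 fell and 1 rose (median -0.66), and the part of these shifts in the histone response was not tested.

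The response to CHX was compared between the depleted cells and their WT by an interaction term. In the Nrde2 pair the members' response was higher in Nrde2-KO for 55 of 59. The median difference was 0.43 (log2), against -0.03 for all genes. Yet 0 members passed the adjusted threshold by limma, 0 by edgeR and 0 by DESeq2, with 6 at an unadjusted p below 0.05. Of all genes, 0.344% passed upward and 0.112% downward, and 0.0859 and 0.0661% were called. The median difference was 0.04 without Nrde2-KO replicate 2 of the libraries without CHX and 0.82 without replicate 1, so it turned on those libraries. In the Ccdc174 pair the median difference was -0.16, with 0 members passing by limma and by edgeR, 1 by DESeq2 and 3 at an unadjusted p below 0.05, where 0.205% of all genes passed upward and 0.0396% downward, and 0.0264 and 0.0330% were called. It was 0.34 without Ccdc174-dTAG replicate 1 of the libraries without CHX and -0.60 without replicate 2.

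Loss of MTREX went with lower levels of most histone genes. The summed level of the 67 genes was 4933 and 5478 normalized CPM in Mtrex-WT and 2735 and 2600 in Mtrex-KO. Of 58 members tested, 28 were called lower and 3 higher, where 11.3% of 14889 genes were called lower and 15.4% higher. In all, 35 fell and 3 rose, against 28.3 and 27.7% of all genes. The median log2 fold change was -1.11, a 2.16-fold lower level, against -0.02 for all genes. Scaled as deposited, the median of all genes was -0.38 and that of the members -1.47, with 43 members called lower and 2 higher. The number called was 20 without Mtrex-WT replicate 2, 20 without Mtrex-KO replicate 2, 24 without Mtrex-WT replicate 1 and 32 without Mtrex-KO replicate 1. The number that fell was 21 without Mtrex-WT replicate 2 and 21 without Mtrex-KO replicate 2.

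**Figure D4:**
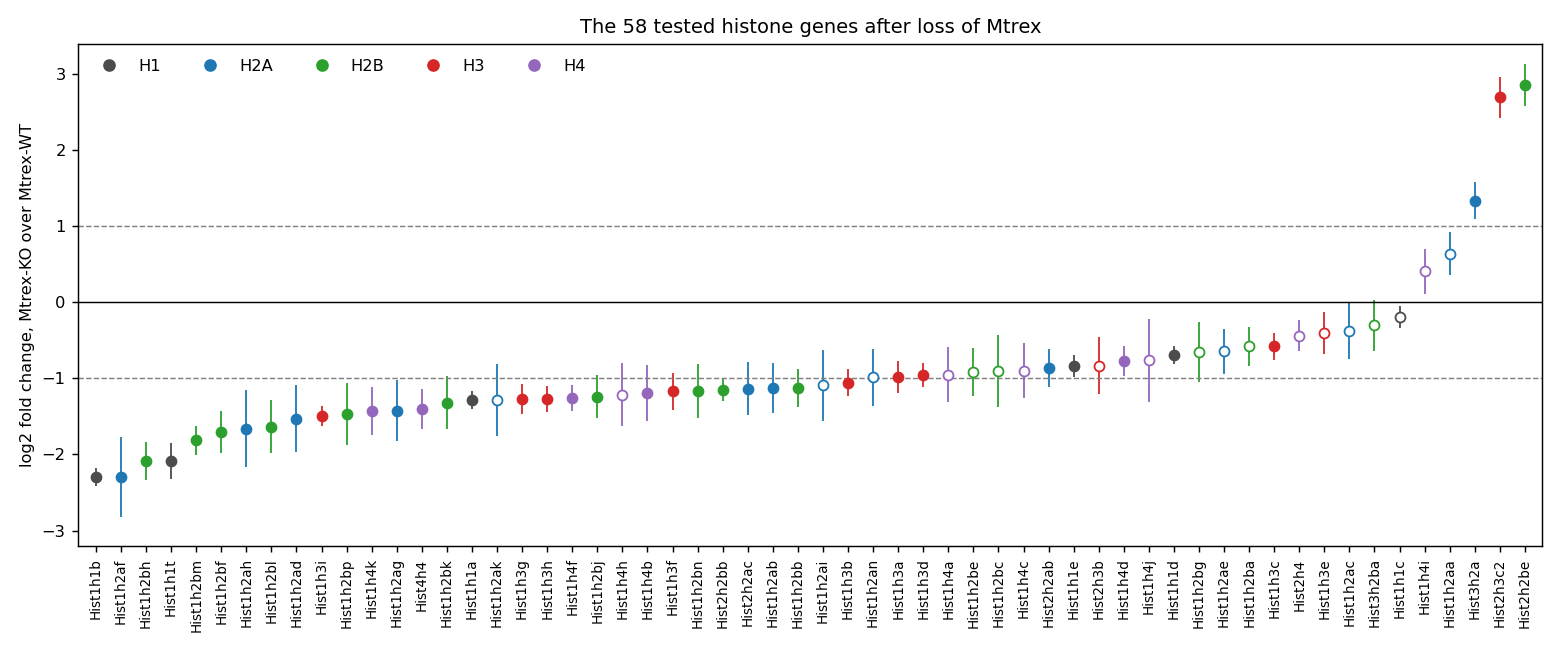
Log2 fold change in Mtrex-KO over Mtrex-WT (vertical axis) of the 58 members tested, in order of size (horizontal axis), with bars for the standard error, colours for the histone class, filled symbols for adjusted p below 0.01 and dashed lines at 1 and -1. Most members lie below 0 with a median of -1.11, and Hist2h2be, Hist2h3c2 and Hist3h2a stand above 1.

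Hist1h1b had the largest decrease, from 392 and 478 normalized CPM in Mtrex-WT to 77.7 and 98.9 in Mtrex-KO (log2 fold change -2.30, SE 0.12, adjusted p = 3.58e-11). Hist1h2af, an H2A gene at a low level, was at 13.4 and 13.4 against 2.95 and 2.19 (-2.29, SE 0.53, adjusted p = 0.000943). Hist1h2bh, an H2B gene, was at 33.8 and 46.3 against 10.4 and 8.0 (-2.09, SE 0.25, adjusted p = 1.03e-06). The libraries of the groups did not overlap for any of these. Hist1h1a fell from 720 and 840 to 290 and 351 (-1.28), whereas Hist1h1c, also a linker histone gene, was at 427 and 424 against 349 and 400 (-0.19, adjusted p = 0.260). Hist1h1t fell from 3.85 and 6.35 to 0.688 and 1.36 (-2.08, adjusted p = 5.47e-07).

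The abundant members of the other classes were lower as well. Hist2h2bb fell with a log2 fold change of -1.15, Hist1h2bb with -1.12, Hist1h2ab with -1.13, Hist1h3b with -1.05, Hist1h3g with -1.27 and Hist1h4k with -1.43. Hist1h4h (-1.21, adjusted p = 0.0155) and Hist1h2ak (-1.28, adjusted p = 0.0228) did not pass. The class medians were close, at -1.16 for H2B, -1.11 for H2A, -1.06 for H1, -0.98 for H3 and -0.95 for H4.

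The 3 members that rose were all at low levels in WT. Hist2h2be, which carries no match to the stem-loop (chr3:96221119-96223738), was at 1.48 and 2.44 in Mtrex-WT and at 14.0 and 16.9 in Mtrex-KO (log2 fold change 2.86, SE 0.28, adjusted p = 7.58e-08). Hist2h3c2, an H3 gene (chr3:96238108-96239127), was at 0.553 and 0.575 against 5.77 and 4.38 (2.697, SE 0.27, adjusted p = 1.36e-07). Hist3h2a (chr11:58954685-58956830) was at 1.98 and 1.70 against 5.38 and 4.68 (1.34, SE 0.24, adjusted p = 9.17e-05), which was 0.98 on the CPM as deposited and then not a call. Hist3h2a and Hist2h3c2 have a stem-loop after which the annotated transcript goes on, and the single annotated transcript of Hist2h2be is 1 exon of 2620 bases. Among members whose transcript ends within 100 bases of the stem-loop 25 of 31 fell and 0 rose (median -1.24), among those that go on 9 of 23 fell and 2 rose (-0.76), and among the 4 without a match 1 fell and 1 rose. This split was described and not tested.

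Cell cycle genes were lower in the same libraries. All 28 S phase genes fell in Mtrex-KO with a median log2 fold change of -1.09, led by Chaf1b (-2.09), a chaperone subunit that places H3 and H4 on new DNA, Uhrf1 (-2.04) and Ccne1 (-2.01), and 19 of 20 G2/M genes fell (-0.91). Of the 25 factors of histone mRNA metabolism 13 fell and 4 rose. Slbp fell from 95.0 and 111 to 47.7 and 55.4 (-0.99, adjusted p = 9.6e-07), and Tut7, a uridylating enzyme of histone mRNA decay, and Upf1 were both higher by 0.72. Of 11 replication-independent histone genes 2 rose, among them H2afj (2.15), and 5 fell, among them Cenpa (-1.56) and H2afx (-1.36). H2afx is in this list although it carries the stem-loop match. Markers of 2C-like cells, a rare mESC state, summed to 3.45 to 8.86 normalized CPM in Mtrex-WT and 76.6 to 246 in Mtrex-KO, with all 7 that were tested higher, and pluripotency markers to 6287 to 6364 against 4496 to 5426. The part of these shifts in the histone change was not tested.

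In Nrde2-KO few histone genes passed the test, and most of those lay lower. In the first experiment the summed level was 5086 and 5204 normalized CPM in Nrde2-WT and 3748 and 3536 in Nrde2-KO, without overlap. Of 58 members 2 were called lower (2.14% of all genes) and 2 higher (2.88%), 8 fell (11.1%) and 2 rose (7.21%). The share that fell was near that of all genes, at a median log2 fold change of -0.63 against -0.01 for all genes, and 55 of 58 members lay below 0. With any of the 4 libraries left out, 1 member was called, and with the spread estimated from the 4 compared libraries alone 44 members fell and 8 were called. Of these 8, 2 were higher and 6 lower, where 460 of all 14809 genes in that setting were called higher and 345 lower. The share of all genes that fell there is not given, so no excess is read from the 44. In the second experiment, without CHX, the sums were 6866 and 8198 in WT and 6619 and 4526 in Nrde2-KO, without overlap on this scale, although the shares of reads of the 2 groups overlapped. There 1 member was called higher (2.34%) and 0 lower (2.47%), 1 rose (7.10%), 2 fell (11.4%), and the median was -0.51. This median was -0.92 without Nrde2-KO replicate 1, with 9 members called, and -0.12 without Nrde2-KO replicate 2.

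Hist1h1t was the member that differed most between Nrde2-KO and Nrde2-WT in each experiment. This gene encodes the testis linker histone (chr13:23695814-23696725, all 50-base positions unique). It was at 4.78 and 5.33 normalized CPM in Nrde2-WT and 15.4 and 15.1 in Nrde2-KO in the first experiment, a difference of 1.55 on the log2 scale (SE 0.24, adjusted p = 0.000106). In the second it was at 4.27 and 4.37 against 14.9 and 11.6 (1.55, adjusted p = 9.76e-05). With CHX it was at 26.7 and 28.3 against 85.8 and 85.1 (1.63, SE 0.11, adjusted p = 2.99e-06). In all 3 comparisons both Nrde2-KO libraries were above both WT libraries, and the call held under every alternative run.

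Hist1h2aa, the testis H2A gene, was at 2.46 and 1.89 in Nrde2-WT and at 5.05 and 4.77 in Nrde2-KO in the first experiment (1.10, SE 0.29, adjusted p = 0.00787). In the second it was at 8.26 and 7.47 against 19.6 and 12.9 (0.99, adjusted p = 0.0145), which did not pass. The call of the first experiment was lost when any library was left out. Among members that passed, the decreases were led by Hist1h4i, an H4 gene, from 44.3 and 44.6 to 22.4 and 19.0 (-1.10, SE 0.29, adjusted p = 0.00830), Hist1h2bb from 168 and 172 to 88.0 and 74.9 (-1.06, SE 0.26, adjusted p = 0.00438), and Hist1h2bh from 37.2 and 39.2 to 20.9 and 19.2 (-0.92, adjusted p = 0.00972). Hist1h4i did not pass by edgeR, by DESeq2 or with any library left out, and Hist1h4b had the lowest value of all members (-1.16, adjusted p = 0.0237) without passing. Hist1h2bb did not pass without a filter or with any library left out. Hist1h2bh did not pass on the CPM as deposited, by edgeR, by DESeq2, without a filter or with any library left out. In the second experiment Hist2h4 (-0.82, adjusted p = 0.00628) and Hist1h1d (-0.43, adjusted p = 0.00846) fell. Neither passed on the CPM as deposited, without a filter, with either Nrde2-WT library left out or without Nrde2-KO replicate 2. Hist1h1a was at 863 and 803 against 690 and 693 in the first experiment (-0.27, adjusted p = 0.0959).

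S phase genes moved in the same direction in the first experiment, with 11 of 28 lower and 0 higher (median -0.37), led by Pold1 (-1.17), the catalytic subunit of DNA polymerase delta. Their summed level was 6608 to 6930 in Nrde2-WT and 5298 to 5398 in Nrde2-KO. Slbp fell by 0.46 on the log2 scale. H2afx, listed with the replication-independent histones though it carries the stem-loop match, fell by 1.24. Pluripotency markers summed to 5875 to 6052 against 4400 to 4751 and markers of 2C-like cells to 1.52 to 2.37 against 15.2 to 22.5. The part of these shifts in the histone values was not tested.

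**Figure D5:**
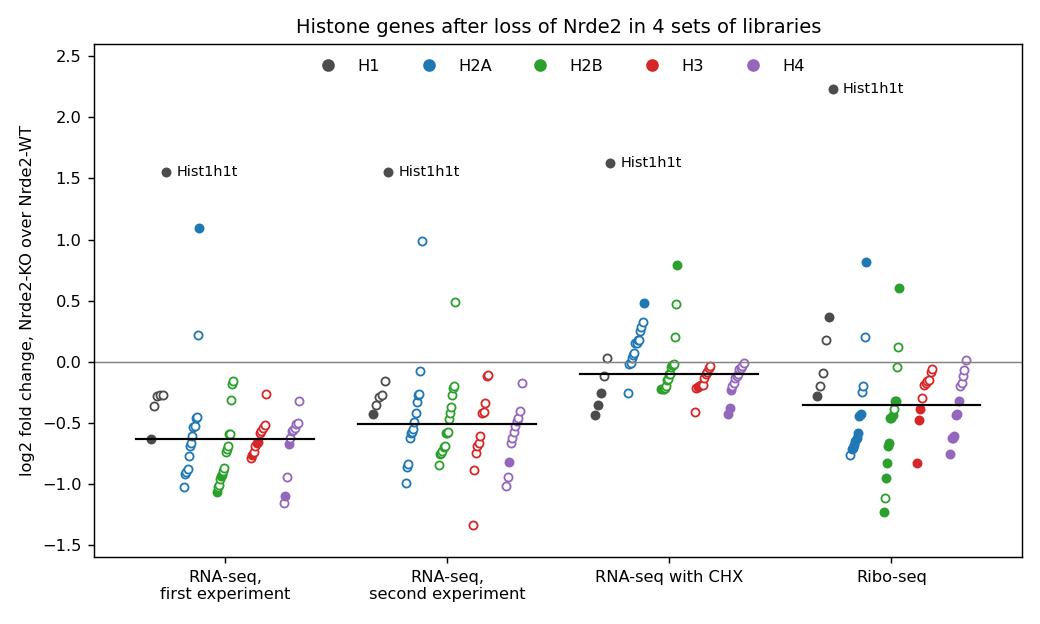
Log2 fold change in Nrde2-KO over WT (vertical axis) of the histone genes tested in the first RNA-seq experiment, the second RNA-seq experiment without CHX, RNA-seq with CHX and Ribo-seq (horizontal axis), with colours for the class, filled points for adjusted p below 0.01 and black lines for the median. The medians were -0.63, -0.51, -0.10 and -0.35, and Hist1h1t is the highest point in all 4 sets.

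With CHX, 1 of 59 members was called higher in Nrde2-KO (2.76% of all genes) and 0 lower (1.90%), 3 rose (10.8%) and 9 fell (17.4%), with a median of -0.10. Those that rose were the testis variants Hist1h1t, Hist1h2ba, from 441 and 411 to 756 and 724 (0.80, adjusted p = 3.29e-06), and Hist1h2aa, from 536 and 534 to 764 and 727 (0.48, adjusted p = 0.000195). Those that fell moved by less, led by Hist1h1d, from 2566 and 2588 to 1995 and 1825 (-0.43, adjusted p = 0.000517), and Hist1h4i, from 316 and 344 to 245 and 247 (-0.42, adjusted p = 0.000129). The groups of these genes did not overlap. The number of members that fell was 3 without Nrde2-WT replicate 2 and 2 without Nrde2-KO replicate 2 of these libraries. Of the S phase genes 18 of 28 fell.

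In the partial alleles few or no histone genes passed the test. The summed level was 5333 and 4639 in Nrde2d200, overlapping with Nrde2-WT, and 3851 and 4443 in Nrde2-D174R, below both Nrde2-WT libraries. In Nrde2d200 only Hist1h1t was called, at 12.8 and 11.2 against 4.78 and 5.33 (1.21, adjusted p = 0.00227), where 1.56% of all genes were called higher and 1.07% lower, and 3.18% rose and 4.19% fell. The call was lost when any library was left out. The median of the members was -0.06 and turned to 0.08 without Nrde2d200 replicate 2. In Nrde2-D174R, where 0.161% of all genes were called higher and 0.0604% lower, and 0.275% rose and 0.134% fell, 0 members were called or passed by limma, by edgeR or by DESeq2, with 6 at an unadjusted p below 0.05. With the spread estimated from the compared groups alone, 4 members fell by limma. The median was -0.30, against -0.01 for all genes, with 55 of 58 members below 0. Hist1h1t was at 6.45 and 5.20 in Nrde2-D174R (0.19, adjusted p = 0.715). Nrde2-KO, Nrde2d200 and Nrde2-D174R share their WT libraries, so these values are not independent of each other.

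After depletion of CCDC174, few histone genes passed a test without CHX. Of 58 members 53 lay above 0, but they share the same libraries and are not independent of each other. The summed level in the WT libraries was 5021 and 4856, and 7315 and 4563 after depletion, so the groups overlapped. The median log2 fold change of 0.27, against 0.02 for all genes, was -0.25 without Ccdc174-dTAG replicate 1 and 0.75 without replicate 2. Hist1h2aa alone was called, at 2.95 and 4.05 against 8.81 and 8.31 (1.25, SE 0.29, adjusted p = 0.00824), where 0.222% of all genes were called higher and 1.18% lower, and 1.04% rose and 4.53% fell. It was lost when any library was left out. Hist1h1t was at 2.69 and 3.46 against 5.80 and 5.66 (0.86, adjusted p = 0.0244).

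With CHX, on the scale of the 16 libraries with and without it, the summed level was 22455 and 20974 in the WT libraries and 25227 and 23734 after depletion, without overlap. Of 59 members 0 were called by limma, by edgeR or by DESeq2 (0.213% of all genes were called higher and 0.762% lower), 7 rose (2.86% of all genes) and 0 fell (6.17%), with a median of 0.12 and 25 at an unadjusted p below 0.05. The last count has no share of all genes beside it, and neither have the next ones, so no excess is read from them. edgeR found 7 and DESeq2 16 members that rose. By limma the number was 3 and 4 without replicate 1 and 2 of Ccdc174-WT, 1 and 0 without replicate 1 and 2 of Ccdc174-dTAG, and 0 without a filter. The 7 were led by Hist1h1t, from 11.4 and 14.9 to 19.9 and 22.9 (0.71, adjusted p = 0.00202), Hist1h2aa, from 280 and 322 to 382 and 401 (0.38, adjusted p = 0.00240), and the H3 gene Hist1h3d, from 299 and 289 to 374 and 371 (0.34, adjusted p = 0.00111). The others were Hist1h2ba, Hist1h1e, Hist1h3b and Hist1h4c, between 0.26 and 0.29.

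Ribo-seq followed the histone mRNAs on ribosomes in Nrde2-KO. The summed level was 4208 and 4297 normalized CPM in WT and 3688 and 3367 in Nrde2-KO. Of 56 members 1 was called higher (3.62% of all 13857 genes) and 1 lower (2.80%), 4 rose (11.0%) and 28 fell (14.2%), with a median log2 fold change of -0.35. On the CPM as deposited, where the median of all genes was 0.15, 9 fell and the members' median was -0.20. The class medians were -0.58 for H2A, -0.46 for H2B, -0.38 for H4, -0.18 for H3 and 0.05 for H1. Nrde2 itself was at 12.3 and 14.3 against 2.34 and 3.25.

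Hist1h1t was again the highest member, at 2.35 and 2.54 in WT and 13.7 and 11.2 in Nrde2-KO (2.23 on the log2 scale, SE 0.22, adjusted p = 2.49e-07). Hist1h2bk, an H2B gene, fell most, from 69.5 and 54.1 to 27.2 and 24.9 (-1.23, SE 0.11, adjusted p = 9.37e-08). Hist1h2bl (-0.95) and Hist1h2bh (-0.83) fell too, and Hist1h2aa (0.82), Hist3h2ba (0.60) and Hist1h1e (0.37) rose. The abundant Hist1h1a fell from 253 and 273 to 224 and 210 (-0.28, adjusted p = 0.00704), and Hist1h1b was at 216 and 235 against 219 and 206 (-0.09, adjusted p = 0.401). In the same libraries 24 of 28 S phase genes fell, with a median of -0.59.

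Set against the RNA-seq of the first experiment in 1 model, the effect of Nrde2-KO in Ribo-seq was higher than in RNA-seq for 48 of 58 members. The median difference was 0.30, against 0.03 for all genes. By limma, by edgeR and by DESeq2 0 members were called (of all 14700 genes 1.01% higher and 0.252% lower by limma), 3 rose (3.71%), 0 fell (1.52%) and 22 were at an unadjusted p below 0.05. No share of all genes is given for that last count or for those that follow, so they show no excess. edgeR found 4 and DESeq2 8 members that rose. Hist1h2bc, an H2B gene, was at 45.4 and 44.1 in RNA-seq of WT and 25.7 and 18.8 in that of Nrde2-KO, and at 71.8 and 70.9 against 73.0 and 66.0 in Ribo-seq, a difference of 0.98 (SE 0.17, adjusted p = 0.00345). The RNA-seq groups were apart while the Ribo-seq groups overlapped. Hist1h3g (0.71) and Hist1h1e (0.66), whose annotation overlaps Hist1h2be on the same strand, were the others, and none of the 3 passed with the RNA-seq of the second experiment.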

How the data were processed

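RNA-seq and Ribo-seq tables of CPM per gene were used. For RNA-seq, the authors prepared stranded total RNA libraries depleted of ribosomal RNA, aligned reads of 50 bases to mm10 with STAR 2.7.3a, assigned reads with a single mapping and the right strand to GENCODE M23 genes with featureCounts, and deposited CPM. For Ribo-seq, the authors trimmed reads and collapsed duplicates before the same steps. The total behind the CPM is not given in the sources used here. All CPM were whole multiples of a library's smallest step (100% of values within 0.1 of a whole number), so the read numbers were recovered, and reads in genes made up 72.1 to 92.1% of the total in RNA-seq and 61.4 to 66.8% in Ribo-seq. All columns were used, and the 16 BCLIP samples were not analysed here.

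Genes were named with GENCODE M21 of GRCm38, which holds 55154 of the 55335 genes. The stem-loop and the 50-base positions that occur once were read from this genome. Each library's CPM were scaled by its median-of-ratios factor, and log2 of the scaled value plus 0.25 was fitted with limma 3.58.1 in R 4.3.3 (mean-variance trend, empirical Bayes). Genes whose mean was below 0.5 CPM were left out. A fold change on this scale understates the change of low genes. Separate fits held the 20 libraries without CHX, the 8 with CHX, the 16 of both kinds, the 4 Ribo-seq libraries, and 8 of Ribo-seq and RNA-seq. Benjamini-Hochberg adjustment ran over all genes of a fit, and each fit has its own factors, so a library's values differ slightly between fits. As alternatives, edgeR 4.0.16 and DESeq2 1.42.0 used the recovered reads. For Nrde2-KO they called 511 and 516 genes higher and 321 and 348 lower, and for Mtrex-KO 2427 and 2895 higher and 1775 and 1757 lower. Where a count at an unadjusted p or under an alternative stands without a share of all genes, no excess is read from it.

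The members, gene lists and tests were chosen with earlier results of these data known. Named are the 2 members of each class with the highest level per kb of exon, and the 3 largest increases and decreases per comparison. Named too are members without a stem-loop match or below the filter, and list genes with adjusted p below 0.01. Others were chosen after their values were seen. Scripts were tested on simulated data. The lists were 28 S phase genes, 20 G2/M genes, 25 factors of histone mRNA, 12 replication-independent histones and markers of 5 cell types. Markers of primitive endoderm summed to 6.94 to 31.1 normalized CPM per RNA-seq library and those of differentiated epiblast to 75.5 to 224, scaled in separate fits with and without CHX.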

Additional observations from a re-analysis of the deposited data

Results flagged for a closer look

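The effect of Nrde2-KO differed between Ribo-seq and RNA-seq of the first experiment, by the interaction term of limma, for 3 histone genes. The log2 difference was 0.98 for Hist1h2bc (SE 0.17, adjusted p = 0.00345, over alternatives 0.000132 to 0.392), 0.71 for Hist1h3g (SE 0.13, adjusted p = 0.00424, over alternatives 0.000415 to 0.0957) and 0.66 for Hist1h1e (SE 0.12, adjusted p = 0.00392, over alternatives 9.07e-05 to 0.0469). In RNA-seq the Nrde2-KO libraries of Hist1h2bc and Hist1h3g lay below those of WT, while their Ribo-seq groups overlapped, and Hist1h1e was lower in RNA-seq and higher in Ribo-seq. None of the 3 passed with the RNA-seq libraries of the second experiment, without a filter, with either Ribo-seq library of WT left out or without Ribo-seq replicate 1 of Nrde2-KO.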

How the results depend on the processing

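Most results kept their direction and their side of the threshold. Over 156 values of named members and 1728 combinations with an alternative, 1529 stayed on their side, 158 no longer passed, 33 newly passed and 8 changed sign. The cause was not tested, apart from the fewer libraries of a fit that leaves 1 out, whose lone library was assumed to vary like the other groups. The number of members called in Nrde2-KO of the first experiment (4) was 1 without a filter and 8 with only the compared groups, and 1 with any library left out. In Nrde2d200 and in Ccdc174-dTAG without CHX it was 0 in place of 1 without a filter and with any library left out. In the second Nrde2-KO experiment it was 2 in place of 1 on the CPM as deposited, with edgeR, with DESeq2, with only the compared groups and with a replicate block, and ran from 1 to 9 with 1 library left out, with 9 without Nrde2-KO replicate 1. For Ribo-seq relative to RNA-seq it was 1 in place of 0 on the CPM as deposited, and 0 to 1 with 1 library left out. In Mtrex-KO it was 45 (2 higher, 43 lower) on the CPM as deposited and 38 with only the compared groups, in place of 31. With 1 library left out the number ran from 20 to 32 in Mtrex-KO, from 45 to 53 for CHX in Nrde2-WT, from 54 to 57 in Nrde2-KO, from 53 to 57 in Ccdc174-WT, from 49 to 56 in Ccdc174-dTAG and from 2 to 3 in Ribo-seq, and stayed at 1 in Nrde2-KO with CHX and at 0 in Nrde2-D174R, in Ccdc174-dTAG with CHX and for the differences of the CHX response. Per unique position 5 of the 10 leading genes per class stayed.

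The log2 fold change of Hist1h1b with CHX in Nrde2-KO changed sign to 0.17 as deposited and 0.0013 with edgeR, and ran from -0.15 to 0.058 with 1 library left out, with 0.058 without replicate 2 of the libraries without CHX and 0.04 without replicate 2 of those with CHX. That of Hist2h2ab in Ccdc174-WT changed to 0.0018 as deposited and ran from -0.52 to 0.067 with 1 library left out, with 0.067 without the CHX replicate 2. In Ccdc174-dTAG it ran from -0.18 to 0.38, with -0.18 without replicate 2 of the libraries without CHX. That of Hist1h1b in Ribo-seq changed to 0.065 as deposited. None of these values passed the threshold.

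The replicate numbers are not stated to pair the libraries. Deviations of same-numbered libraries correlated at -0.03 to 0.27 in the first Nrde2 experiment, 0.42 in the Mtrex pair, 0.35 in the Ccdc174 pair (0.37 with CHX), 0.12 in the second Nrde2 experiment (0.22 with CHX) and -0.03 in Ribo-seq. With the replicate block 33 members were called in Mtrex-KO, 5 in Nrde2-KO and 2 in the second Nrde2-KO experiment, and with CHX 57, 57, 56 and 57 in Nrde2-WT, Nrde2-KO, Ccdc174-WT and Ccdc174-dTAG. At the adjusted p alone the block gave 16 members that fell in place of 8 in Nrde2-KO, 10 in place of 2 in the second experiment, 18 in place of 9 with CHX, where 7 rose in place of 3, and in Ccdc174-dTAG with CHX 22 that rose in place of 7 and 1 that fell. The share of all genes that passed with the block is not given, so these counts show no excess.

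Hist1h2aa, Hist1h1t and Hist3h2a rest on few reads without CHX, which limits the precision of their folds. With only the compared groups, Ribo-seq and the model of both assays held the same libraries.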
